A study of Mus musculus with 9 samples.

Results

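The genes described here are 10 genes of formative and primed pluripotency, Fgf5, Otx2, Pou3f1, Zic2, Zic5, Lef1, Etv5, Sall2, Foxd3 and Utf1, out of 21887 protein-coding genes in the RefSeq annotation of the mouse mm10 build. They were chosen by name and not by a cut on measured values, but with earlier results of these data known. For each gene, every region of open chromatin within 1 kb of either gene end and within 50 kb of the gene was collected, which gave 134 of the 116362 regions in the whole series. Open chromatin was measured by ATAC-seq. In this assay a transposase, Tn5, cuts accessible DNA and tags it for sequencing, and a peak is a stretch where such cuts pile up above the local level. The cells were E14, a mouse embryonic stem cell line, in a variant named TOT2N that all groups shared. There were 3 lines with 3 libraries each. The WT line was labelled wild type, and its labels name no TetR construct. The TetR line carried a stably integrated construct for TetR, the bacterial tetracycline repressor that binds tet operator DNA. The TetR-MYBTA line carried a stably integrated TetR-MYBTA construct, and what MYBTA contains is not spelled out in the labels. The series as a whole concerns sustained activity of MYB, a transcription factor known from blood progenitors. The sources used here do not give the culture medium or whether each construct line was 1 clone. Nor do the labels say that the libraries of a line were grown apart, so the p-values below reflect the spread of the libraries alone, and that spread may be technical.

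Embryonic stem cells in the naive state resemble the epiblast before implantation, and they pass through a formative state on the way to the primed state of the epiblast after implantation. On that path naive genes are shut off and a second set of genes, led by Fgf5, Otx2 and Pou3f1, is switched on. Several of the genes here, among them Utf1 and Foxd3, are also expressed in naive cells, so the set is not silent in embryonic stem cell cultures.

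Each library held 16.4 to 23.0 M tags and 45136 to 70230 peaks. The TetR-MYBTA libraries had 5.48 to 7.57% of their tags in peaks and the other 6 libraries 7.79 to 9.78%. The part of this gap in the results below was not tested, and counts are therefore also given with each list shortened to its first 45136 rows, called equal list length below. As a check on cell type, a peak within 1 kb of a gene end was present in all 9 libraries at Sox2, a pluripotency factor, in 2 at Pou5f1, in 4 at Nanog and in none at Esrrb and Zfp42. By line, Nanog had it in 0 TetR-MYBTA, 3 TetR and 1 WT libraries. Of the 9 markers of neural, mesodermal, endodermal, trophoblast and blood cells, Spi1 had such a peak in 9 libraries, Cdx2 in 8, Pax6, Sox1 and Gata6 in 6 each, T and Elf5 in 1 each and Sox17 and Ptprc in none. Sox1, a neural marker, had it in 0 TetR-MYBTA, 3 TetR and 3 WT libraries, Pax6 in 2, 3 and 1, and Gata6, an endoderm marker, in 1, 3 and 2. Some markers thus differed along the comparisons made below, and their part in those was not tested. Peaks at gene ends thus did not sort the stem cell markers from those of other cell types, and these files hold no RNA.

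Sequences before the start sites are shown for 4 of the genes, because these 4 span the range from a start open in every library to a start open in none. They are the 250 bases before the outermost listed start, read 5′ to 3′ on the gene's strand, from RefSeq on GRCm38.p6 (mm10 coordinates). Promoter sequences of 8 of the 10 genes were matched. Capitals mark matches on either strand to 5 short motifs, namely AACNG for MYB, ATGCAAAT for POU factors, TAATCC for OTX factors, CTTTGAT for LEF and TCF factors and CCGCCC for SP and KLF factors.
Utf1, chr7:139943606-139943855, plus strand, overlapped by a peak in 9 libraries: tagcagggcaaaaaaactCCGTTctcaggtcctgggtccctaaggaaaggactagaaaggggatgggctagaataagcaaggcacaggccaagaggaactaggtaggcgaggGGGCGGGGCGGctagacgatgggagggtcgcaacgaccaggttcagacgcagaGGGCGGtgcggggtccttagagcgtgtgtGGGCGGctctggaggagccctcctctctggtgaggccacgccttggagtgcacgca
Etv5, chr16:22439571-22439820, minus strand, overlapped by a peak in 9 libraries: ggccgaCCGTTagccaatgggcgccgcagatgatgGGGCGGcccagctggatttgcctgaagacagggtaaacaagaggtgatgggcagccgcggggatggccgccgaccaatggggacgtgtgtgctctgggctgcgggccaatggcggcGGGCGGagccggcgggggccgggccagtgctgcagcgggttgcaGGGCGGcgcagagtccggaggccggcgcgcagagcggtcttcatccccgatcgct
Foxd3, chr4:99656049-99656298, plus strand, overlapped by a peak in 3 libraries: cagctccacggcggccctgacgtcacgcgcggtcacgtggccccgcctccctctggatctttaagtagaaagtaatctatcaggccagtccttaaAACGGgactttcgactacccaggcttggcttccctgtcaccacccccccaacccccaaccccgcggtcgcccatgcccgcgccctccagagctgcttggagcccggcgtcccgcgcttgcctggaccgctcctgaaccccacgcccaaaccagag
Sall2, chr14:52328671-52328920, minus strand, overlapped by a peak in 0 libraries: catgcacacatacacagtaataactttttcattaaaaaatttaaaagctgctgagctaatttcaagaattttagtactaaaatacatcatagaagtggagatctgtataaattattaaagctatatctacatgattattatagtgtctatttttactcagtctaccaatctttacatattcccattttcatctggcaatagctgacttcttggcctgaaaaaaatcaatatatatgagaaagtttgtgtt

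The share of G and C was 61.6% in the Utf1 sequence, 71.2% in that of Etv5, 65.6% in that of Foxd3 and 28.0% in that of Sall2, beside a median of 52.4% over the 32851 promoters in the table. The Utf1 and Etv5 sequences, both open in all libraries, held 4 and 3 matches to CCGCCC and 1 match each to AACNG. The first 2 CCGCCC matches of Utf1 share 1 base. The Foxd3 sequence held 1 match to AACNG, and that of Sall2 held none of the 5 motifs. Over the 8 genes with a sequence, AACNG was found before the outermost start of 6, and it occurs in 74.2% of all promoters of this length. CCGCCC was found in 4 of the 8, against 32.7% of all promoters. Among these were Fgf5, with 70.8% G and C and a peak in 1 library, and Lef1, with 66.4% and a peak in none. The octamer, the OTX and the LEF letters were found in 0 of the 8, and they occur in 1.60%, 6.25% and 3.21% of all promoters. These matches describe letters in the window and are not binding sites.

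A peak within 1 kb of a gene end was present in all 9 libraries at 4 of the 10 genes, Pou3f1, Zic2, Etv5 and Utf1, beside 44.2% of all protein-coding genes. Lef1 had none in any library, as had 37.5% of all genes. Sall2 had one in every TetR library and in no other, a pattern shown by 0.215% of genes. The remaining 4 genes were open at an end in some libraries of more than 1 line or in a single library. The maps of each locus below show where these peaks lie relative to the other regions.

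**Figure D1:**
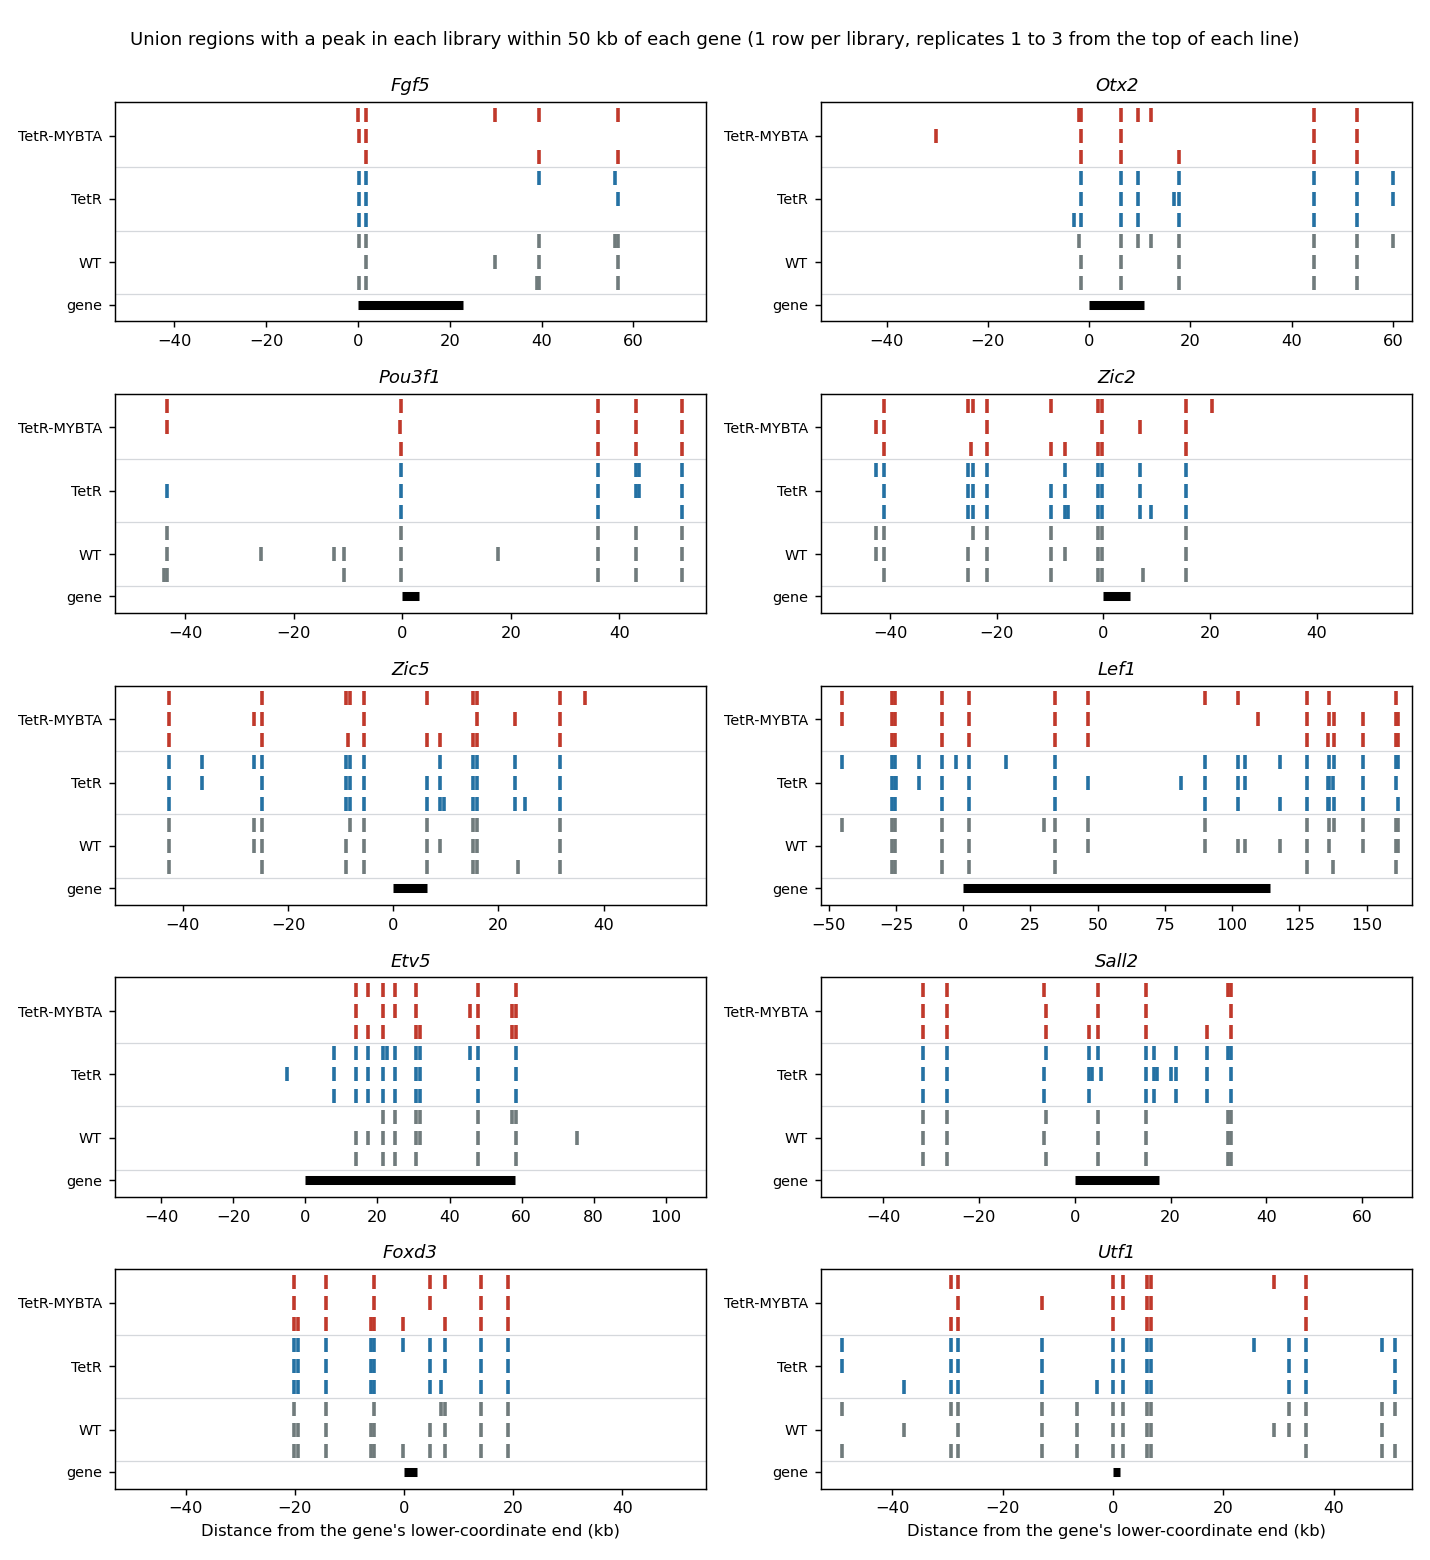
Regions of open chromatin around each of the 10 genes, with the distance from the gene's lower-coordinate end on the x axis in kb and 1 row for each of the 9 libraries, coloured by line. A mark stands for a region with a called peak and the black bar for the gene. Regions in every row, such as the start of Utf1, sit beside regions in 1 row, and at Sall2 several marks appear only in the 3 TetR rows.

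Fgf5 (chr5:98254184-98277033) encodes the secreted fibroblast growth factor that is the usual marker of the epiblast after implantation. Its start was covered by chr5:98254033-98254226 in TetR-MYBTA replicate 1 alone. The adjoining chr5:98254267-98254626, which begins 83 bp after the start, had a peak in TetR-MYBTA replicate 2, all TetR libraries and WT replicates 1 and 3. The region open in all 9 libraries was chr5:98255768-98256159, inside the gene and 1584 bp after the start. Within 50 kb of Fgf5 there were 5, 2 and 3 peaks in the TetR-MYBTA libraries, 4, 3 and 2 in TetR and 5, 4 and 5 in WT. The lines overlapped in these counts, and Fgf5 had fewer peaks than the median gene, at percentile 36.7 of all genes.

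Etv5 (chr16:22381313-22439570) encodes an ETS factor that acts downstream of FGF signalling. Its outermost start was open in every library, at chr16:22439632-22439897, 62 bp before the gene. A second gene-end region, chr16:22438451-22438689, lies 83 bp from a second listed start and had peaks in TetR-MYBTA replicates 2 and 3 and WT replicate 1, with none in TetR. Of its 14 regions, 11 lay inside the gene, among them chr16:22389224-22389488, which had a peak in every TetR library and in no other. The counts within 50 kb were 7, 8 and 8 in TetR-MYBTA, 11, 10 and 9 in TetR and 7, 9 and 6 in WT. TetR was thus above TetR-MYBTA in every library, but only before list length was taken into account.

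Lef1 (chr3:131110297-131224357) encodes a DNA-binding partner of β-catenin in Wnt signalling. It had the most regions of the 10 genes, 26, of which 6 were open in all 9 libraries, and it stood at percentile 97.8 of all genes in peaks per library. Lef1 spans 114 kb, so its window is also the longest. No peak lay within 1 kb of its ends. Instead chr3:131111990-131112564, open in all 9 libraries, ended 227 bp before a start listed inside the gene. Near another inner start, chr3:131156503-131156759 was open in all TetR-MYBTA libraries, in TetR replicate 2 and in WT replicates 1 and 2. The counts were 12, 14 and 12 in TetR-MYBTA, 19, 18 and 14 in TetR and 15, 15 and 8 in WT. WT replicate 3 was the lowest of all, so that WT spanned the range of the TetR-MYBTA libraries.

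Otx2 (chr14:48656781-48667644) encodes a homeodomain factor that drives the exit from the naive state. Its outermost start had no peak. The region chr14:48666358-48666649, inside the gene, had peaks in TetR-MYBTA replicate 1, all TetR libraries and WT replicate 1, and only the peak of TetR-MYBTA replicate 1 itself came within 1 kb of the gene end. A start listed inside the gene was flanked by chr14:48662908-48663146, 174 bp away and open in all 9 libraries. Counts within 50 kb were 7, 5 and 5 in TetR-MYBTA, 7, 8 and 7 in TetR and 8, 5 and 5 in WT, and these overlapped between all lines.

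Pou3f1 (chr4:124657646-124660655) encodes a POU-domain factor, also known as Oct6, of the formative epiblast. The region over its gene end, chr4:124657309-124657659, had a peak in 8 libraries, and TetR-MYBTA replicate 2 had the neighbouring chr4:124657090-124657298 in its place. Its counts were 5, 5 and 4 in TetR-MYBTA, 5, 6 and 3 in TetR and 6, 9 and 7 in WT. WT was the highest line here, and all WT libraries lay above all TetR-MYBTA libraries. Of its 12 regions, 5 had peaks only in WT libraries, none of them in all 3. The share of such regions over the whole series was not computed. Regions chr4:124631579-124631781, chr4:124644986-124645188 and chr4:124675167-124675369 were found in WT replicate 2 alone, the longest WT list. Region chr4:124613689-124613889 was found in WT replicate 3 alone, and chr4:124646746-124647037 in WT replicates 2 and 3.

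Zic2 (chr14:122475384-122480328) and Zic5 (chr14:122459160-122465658) encode zinc finger factors and lie side by side, so 16 regions fall in both windows and the genes are not independent here. Beside Zic2, chr14:122474904-122475318 was open in all 9 libraries, 66 bp from the gene, and chr14:122474169-122474397 in every library but TetR-MYBTA replicate 2. The start of Zic5 was covered by chr14:122465453-122465676 in TetR-MYBTA replicates 1 and 3, TetR replicates 2 and 3 and all WT libraries. Around Zic2 the counts were 9, 6 and 8 in TetR-MYBTA, 10, 10 and 12 in TetR and 8, 9 and 8 in WT. Around Zic5 they were 10, 7 and 9, then 12, 12 and 13, then 9, 10 and 9, in the same order. For both genes TetR had the highest raw counts, and TetR-MYBTA and WT overlapped.

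Sall2 (chr14:52311177-52328670) encodes a zinc finger factor of the Spalt family. Each of its 16 regions had a peak in at least 1 TetR library, and 6 had peaks in TetR libraries only, 37.5%, beside 14.6% of all regions. Without TetR replicate 2, which alone held 4 of these 6, there were 2 of 12, 16.7%, beside 11.5%. The gene-end region chr14:52327613-52327823, 847 bp inside the outermost start, was open in all TetR libraries and in no other, also at equal list length. A second one, chr14:52328316-52328510, was found in TetR replicate 2 alone. The low-GC sequence printed above was not overlapped by a peak. Near a start listed inside the gene, chr14:52315754-52316356 was open in all TetR-MYBTA and WT libraries and in TetR replicate 1. Counts were 7, 6 and 8 in TetR-MYBTA, 11, 13 and 9 in TetR and 7, 7 and 7 in WT, with TetR above both other lines.

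Foxd3 (chr4:99656299-99658671) encodes a forkhead factor needed in the epiblast. Its gene-end region, chr4:99655967-99656202, lies 97 bp before the start and was open in TetR-MYBTA replicate 3, TetR replicate 1 and WT replicate 3. None of its 11 regions was found in a single library, and 5 were open in all 9. Counts were 7, 6 and 9 in TetR-MYBTA, 10, 9 and 9 in TetR and 7, 9 and 10 in WT, which overlapped between all lines.

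Utf1 (chr7:139943856-139945112) encodes a chromatin-associated protein of pluripotent cells. Its start was open in every library, at chr7:139943656-139943930, and chr7:139945590-139945823, 0.478 kb past its far end, was open in all but TetR-MYBTA replicate 3. Counts within 50 kb were 8, 7 and 6 in TetR-MYBTA, 13, 11 and 12 in TetR and 13, 12 and 12 in WT. Every TetR-MYBTA library was below every other library. Of the 17 regions, 8 had no peak in any TetR-MYBTA library, 47.1%, beside 34.6% of all regions, and the same held for 6 of 12 around Pou3f1. The nearest gene of each of the 8 was Kndc1, Spef1l or Adam8, and 3 of the 8 were open in only 1 or 2 libraries of any line. Utf1 was the nearest gene of only 4 regions, of which 3 were open in all 9 libraries.

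**Figure D2:**
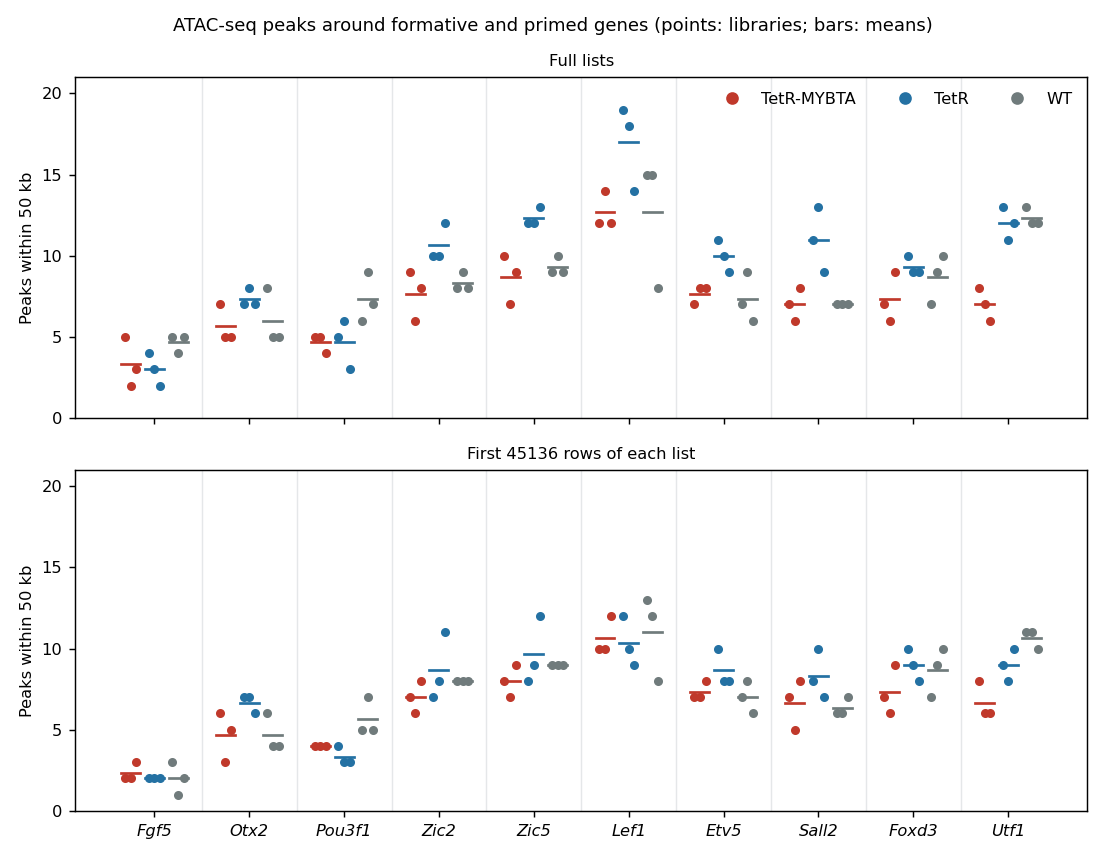
Peaks within 50 kb of each of the 10 genes on the y axis, 1 point per library coloured by line with bars at the means of each line, for the whole lists and for the first 45136 rows of each list. Around Utf1 the TetR-MYBTA points lie at 6 to 8 and the others at 11 to 13 in the whole lists. At Fgf5, Otx2, Lef1 and Foxd3 all lines overlap there, and at the other genes at least 1 pair of lines does not.

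To compare the lines, peaks within 50 kb were scaled per 10000 peaks of the list. Around Utf1 this gave 1.30 ± 0.0609 (SD, n = 3) for TetR-MYBTA, 1.85 ± 0.187 for TetR and 2.07 ± 0.203 for WT. The ratio of TetR-MYBTA to the other 6 libraries was 0.662, with a two-sided exact permutation p = 0.0119, the smallest that 3 against 6 libraries can give. After Benjamini-Hochberg adjustment over the 20443 genes with any peak the adjusted p was 0.112, so Utf1 did not pass. By the same exact permutation test 0 genes had an adjusted p under 0.05, and 4782 genes, 23.4%, had an unadjusted p under 0.05. The other 9 genes had exact p-values from 0.631 to 0.964, with ratios from 0.898 for Pou3f1 to 1.05 for Etv5. The share of all peaks on chromosome 7, which holds Utf1, was 5.64% for TetR-MYBTA, 5.86% for TetR and 6.24% for WT, and its part in the Utf1 count was not tested.

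Read against all genes, 1 of the 10 genes, Utf1, was lower in every TetR-MYBTA library than in the other 6, beside 10.2% of genes, and 0 were higher, beside 4.47%. At equal list length 0 of the 10 were lower, beside 5.98%. The Utf1 counts were then 8, 6 and 6 in TetR-MYBTA, 9, 8 and 10 in TetR and 11, 11 and 10 in WT, so that 1 TetR-MYBTA library met 1 TetR library. The exact permutation p was 0.0238 and the adjusted p 0.233. The median difference was -0.0595 peaks per 10000 over the 10 genes and -0.0392 over all genes, and it was negative for 8 of the 10 and for 57.2% of genes. The counts for these genes were thus near those of the annotation as a whole.

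Against TetR, the construct line without MYBTA, Utf1 was lower in TetR-MYBTA without overlap, beside 17.8% of genes, and none was higher, beside 10.1%. None was lower at equal list length, beside 12.8%. Without scaling, 5 genes were lower, Zic2, Zic5, Etv5, Sall2 and Utf1, beside 25.1% of genes. With scaling but without TetR-MYBTA replicate 3, the shortest list, 5 genes were lower, Zic5, Etv5, Sall2, Foxd3 and Utf1, beside 25.2% of genes. Without TetR replicate 1 there were 2, beside 23.1%, and without TetR replicate 3 also 2, beside 23.0%. Against WT, Pou3f1 and Utf1 were lower in TetR-MYBTA, beside 20.0% of genes, and none was higher, beside 7.83%. Both were again lower at equal list length, beside 14.5%. These comparisons share the TetR-MYBTA libraries, and with 3 libraries on each side an exact permutation test cannot go below p = 0.1.

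TetR and WT were compared in the same way. Fgf5 and Pou3f1 were lower in TetR, beside 11.4% of genes, and Zic5, Etv5 and Sall2 were higher, beside 8.57%. Pou3f1 was 0.711 ± 0.200 (SD, n = 3) peaks per 10000 in TetR and 1.22 ± 0.187 in WT, with 0.868 ± 0.0260 in TetR-MYBTA. At equal list length Pou3f1 alone was lower, with 4, 3 and 3 peaks in TetR against 5, 7 and 5 in WT, beside 7.61% of genes. None was higher, beside 5.58%, and the Sall2 counts of 8, 10 and 7 in TetR then met those of 6, 6 and 7 in WT. Chromosome 4, which holds Pou3f1, had 5.83%, 5.84% and 6.24% of peaks in TetR-MYBTA, TetR and WT, and the part of this in the Pou3f1 count was not tested.

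Over all 10 genes together there were 68, 60 and 64 distinct peaks in the TetR-MYBTA libraries, 92, 90 and 78 in TetR and 77, 80 and 69 in WT. TetR-MYBTA lay below the other 6 libraries. As a share of each list, however, the values were 0.114, 0.105 and 0.142% in TetR-MYBTA, 0.131, 0.136 and 0.133% in TetR and 0.136, 0.127 and 0.116% in WT, which overlap. With the lists shortened they were 59, 50 and 64, then 70, 66 and 65, then 67, 67 and 61, and TetR-MYBTA replicate 3 then overlapped WT.

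The 134 regions were next sorted by the libraries in which they were open. All 9 libraries had a peak in 35 regions, 26.1%, beside 22.4% of all regions, and 30 regions, 22.4%, were found in 1 library, beside 26.0%. Of the 35, 3 lay at a gene end, 8 inside a gene and 24 outside. At equal list length, 29 of 110 regions, 26.4%, were in all 9 lists, beside 25.5%. The distribution near these genes and that over all regions differed by a few percentage points at each number of libraries.

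**Figure D3:**
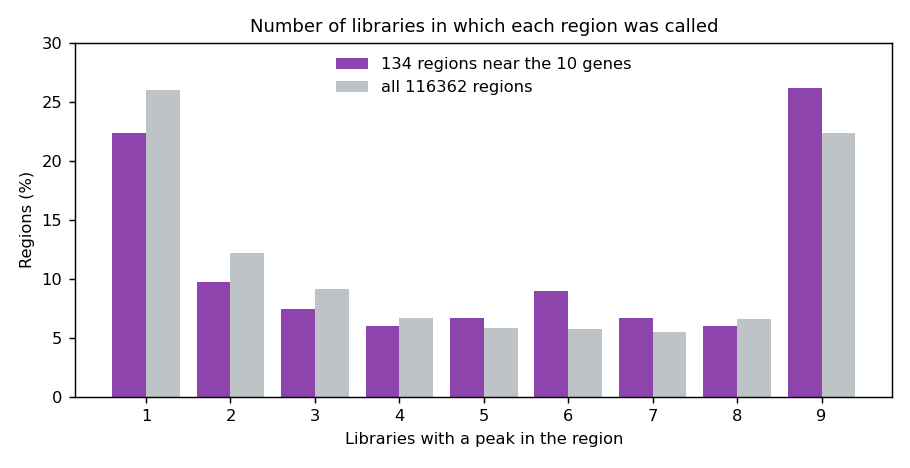
Percent of regions on the y axis by the number of libraries with a peak on the x axis, for the 134 regions near the 10 genes and for all 116362 regions. Both sets are highest at 1 and at 9 libraries, with 26.1% of the regions near these genes and 22.4% of all regions at 9.

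No region near these genes was open in each TetR-MYBTA library and in no other, beside 0.587% of all regions, and none was missing only in TetR-MYBTA, beside 1.16%. None was open in all TetR-MYBTA libraries and in no TetR library, beside 1.40%, or in all TetR-MYBTA and no WT library, beside 1.23%. In the other direction, 5 regions, 3.73%, were open in all TetR and no TetR-MYBTA library, beside 4.43%. Without TetR-MYBTA replicate 1 this count was 10, 7.52%, beside 6.52% of all regions, and without replicate 2 it was 8, 6.11%, beside 6.14%. Without TetR-MYBTA replicate 3 it was 12, 8.96%, beside 5.07%, and without TetR replicate 3 it was 11, 8.40%, beside 7.55%. Another 2, 1.49%, were open in all WT and no TetR-MYBTA library, beside 2.79%. At equal list length 2 regions were open in TetR and not in TetR-MYBTA, beside 3.39%, and 0 the other way round, beside 3.38%.

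The regions with a peak in every TetR library and no other were 3, beside 1.34% of all regions, and they were the gene-end and an upstream region of Sall2 and the inner region of Etv5 given above. The upstream region of Sall2, chr14:52332303-52332504, lies 3.63 kb from the gene. At equal list length 1 of them was left, the gene-end region, beside 1.14% of regions. Open in all TetR and no WT library were 6 regions, 4.48%, beside 2.26%, which adds 3 to those 3. At equal list length 3 of 110 were left, 2.73%, beside 2.10%. The 3 added in the whole lists were chr14:52314009-52314269 inside Sall2, chr14:52338744-52338971 at 10.1 kb from it, both also open in TetR-MYBTA replicate 3, and chr14:122482057-122482536 at 1.73 kb from Zic2, also open in TetR-MYBTA replicate 2. Sall2 and Zic2 thus held 5 of the 6. None was missing only in TetR, beside 0.255%.

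Near Utf1, chr7:139937247-139937463 was open in all WT libraries and no other, also at equal list length, at 6.39 kb from Utf1 and inside Kndc1. It was the single such region near these genes, beside 0.571% of all regions and 0.719% at equal list length, and likewise the single one open in all WT and no TetR library, beside 1.37%. None was missing only in WT, beside 0.151%. The TetR-MYBTA libraries also lacked chr7:139975540-139975779 inside Spef1l, which was open in all TetR libraries and WT replicates 1 and 2. They lacked chr7:139994778-139995006 inside Adam8, open in all TetR libraries and WT replicates 1 and 3, and chr7:139992447-139992693 in the same gene, open in all WT libraries and TetR replicate 1. Adam8 encodes a membrane metalloprotease.

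The window has an edge at 50 kb. The outermost regions inside it were the one in Adam8, 49.7 kb from Utf1, and chr14:48716604-48716808, 49.0 kb from Otx2. Just outside lay chr4:124606212-124606499, 51.1 kb from Pou3f1 and open in 2 TetR-MYBTA, 0 TetR and 3 WT libraries, and chr14:122406790-122407167, 52.0 kb from Zic5 and open in 2 libraries of each line.

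Regions open in all 9 libraries can still differ in strength, which these files do not give. The order of the rows was used in its place. What the rows were sorted by is not stated, and their order is known to follow the caller's peak numbers only within each chromosome, so a place in the list is not a measured strength. Each of the 26020 regions open in all libraries was given its place among them in each list, as a percentile with 100 for the first row. The 35 regions near the 10 genes included 8, 22.9%, that stood lower in every TetR-MYBTA list than in every other list, beside 8.92% of all 26020, and 1, 2.86%, that stood higher, beside 11.7%. The difference was negative for 29 of the 35, 82.9%, beside 52.9% of all 26020 regions, with a median of -11.1 percentile points against -0.728. In two-sided exact permutation tests, 11 of the 35, 31.4%, had an unadjusted p under 0.05, beside 7686 regions, 29.5%, of all. After Benjamini-Hochberg adjustment 0 regions passed, and the smallest adjusted p by this exact permutation test was 0.0828.

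The 8 lower regions were spread over 6 loci, and a member of the set was the nearest gene of each. The region inside Etv5, chr16:22411755-22412060, stood at 28.6, 29.3 and 31.8 in TetR-MYBTA, 48.8, 64.3 and 58.6 in TetR and 67.9, 56.0 and 55.3 in WT. Its difference between TetR-MYBTA and the other 6 was -28.6 points. The upstream Foxd3 region chr4:99641864-99642234, 14.1 kb from the gene, stood at 49.6, 37.4 and 37.2, then 83.0, 66.1 and 84.1, then 71.0, 65.7 and 76.8, in the same order. This was the largest drop of the 8, at -33.0 points.

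The Utf1 regions at 4.71 and 5.42 kb past its far end were among the 8. At 4.71 kb, chr7:139949825-139950112 stood at 27.5, 26.3 and 17.1 in TetR-MYBTA, 58.8, 51.0 and 33.7 in TetR and 57.3, 49.2 and 71.1 in WT. At 5.42 kb, chr7:139950534-139950795 stood at 29.3, 28.2 and 28.1, then 58.0, 63.9 and 59.8, then 54.0, 46.2 and 43.9. Another region past the far end and open in all 9 libraries, chr7:139978636-139978873 at 33.5 kb, did not separate. It stood at 34.4, 1.55 and 14.7 in TetR-MYBTA, 35.2, 63.9 and 52.9 in TetR and 23.4, 26.7 and 37.0 in WT. The Utf1 start between the same libraries did not separate, at 53.3, 69.4 and 62.5 in TetR-MYBTA, 47.2, 54.0 and 76.8 in TetR and 75.7, 64.3 and 72.8 in WT.

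Upstream of Lef1, chr3:131084700-131084971 stood at 62.1, 60.3 and 48.1 in TetR-MYBTA, 90.5, 91.1 and 84.8 in TetR and 84.1, 78.1 and 82.5 in WT. Closer to Lef1, at 7.73 kb, chr3:131102280-131102568 stood at 75.0, 77.1 and 72.5, then 93.5, 92.9 and 96.5, then 87.9, 91.4 and 88.3. In both the TetR libraries stood high in the list and TetR-MYBTA lowest. The region at the inner start of Otx2 stood at 13.1, 1.28 and 1.91 in TetR-MYBTA, 31.1, 35.9 and 19.6 in TetR and 21.4, 18.5 and 19.8 in WT. The last of the 8, chr14:122434109-122434420 at 24.7 kb from Zic5, stood at 23.0, 14.5 and 11.7, then 39.2, 45.4 and 37.7, then 24.5, 30.1 and 41.1. Each of the 8 had a two-sided exact permutation p = 0.0119 and an adjusted p of 0.0828. The 8 were picked for not overlapping, which by itself puts p at or near its smallest value, so these p-values add no support.

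The single region that stood higher in TetR-MYBTA was chr14:52343696-52343927, 15.0 kb from Sall2 and nearest to the olfactory receptor gene Olfr1513. It stood at 23.1, 36.5 and 20.8 in TetR-MYBTA, 2.72, 3.99 and 19.6 in TetR and 15.4, 14.7 and 6.35 in WT. Of the starts open in all libraries, that of Etv5 stood at 91.5, 76.7 and 92.7 in TetR-MYBTA, 88.2, 91.8 and 89.6 in TetR and 93.0, 92.9 and 94.8 in WT. The region beside Zic2 stood at 59.5, 71.4 and 63.3, then 67.0, 51.7 and 56.7, then 53.6, 53.5 and 73.7. At the Etv5 start every WT library thus stood above every library of both other lines while the gene-end regions of Utf1 and Zic2 overlapped between all lines. None of these was among the 8 lower regions.

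**Figure D4:**
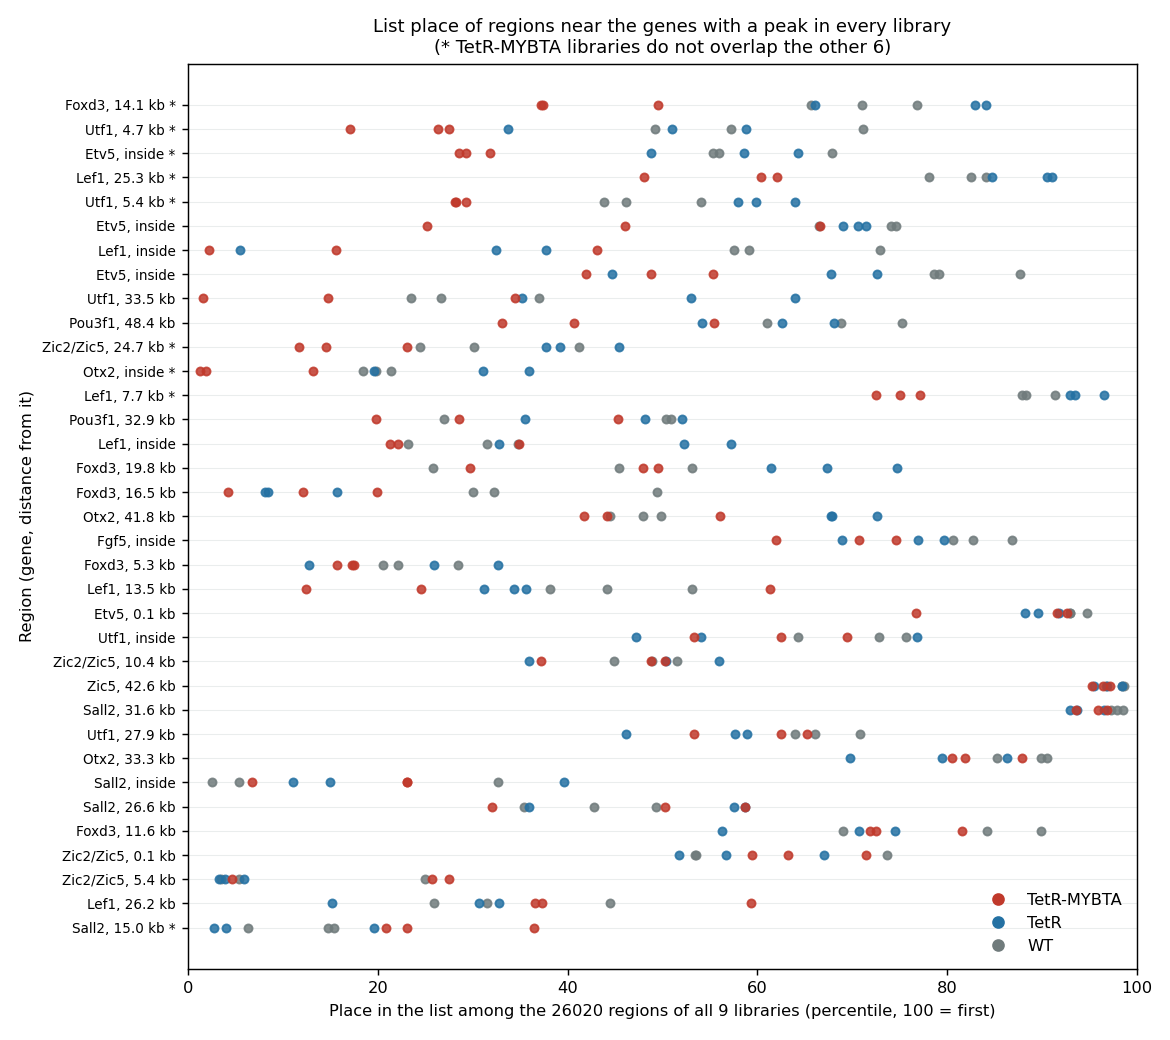
Place in the list on the x axis, as a percentile with 100 for the first row, for the 35 regions near the 10 genes open in all 9 libraries, 1 region per row and 1 point per library coloured by line. Asterisks mark the 9 regions where TetR-MYBTA does not overlap the other 6 libraries. In the 8 regions that stood lower, such as the Foxd3 region with TetR-MYBTA at 37.2 to 49.6 and the others at 65.7 to 84.1, all TetR-MYBTA points lie below the other points.

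In the pairwise comparisons by list place, 12 regions, 34.3%, stood lower in TetR-MYBTA than in TetR, beside 19.5%, and 2 higher, beside 19.7%. Against WT, 16 regions, 45.7%, stood lower in TetR-MYBTA, beside 21.5%, and 1 higher, beside 20.2%. TetR stood lower than WT in 8 regions, 22.9%, beside 19.7%, and higher in 5, 14.3%, beside 18.5%. These comparisons share libraries. Ranked only among regions of the same chromosome, all 8 regions named above stood lower again. The tags in peaks were fewer in TetR-MYBTA, as given above, and the part of this in the order of the lists was not tested.

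Other genes of the same path were taken as a list of 17 further formative and primed genes, and the genes of the state they replace as a list of 12 naive genes. Of the 17, 0 were lower in TetR-MYBTA than in the other 6 libraries, beside 10.2% of all genes, and 0 higher, beside 4.47%. At equal list length 2 were lower, Fgf15 and Eomes, beside 5.98%, and without scaling 2, Fgf15 and T, beside 11.7%. Fgf8 and Eomes were lower than in TetR, beside 17.8%. Sox11, Grhl2, Fgf15 and Tead2 were lower than in WT, beside 20.0%. Tead2 was also lower in TetR than in WT, beside 11.4%, and Tcf15 and Rbpj were higher in TetR than in WT, beside 8.57%. A gene-end peak was present in all 9 libraries at 8 of the 17, beside 44.2% of all genes. Of the 12 naive genes, 1 was higher in TetR-MYBTA than in the other 6, Tfcp2l1, a factor of the naive network, beside 4.47% of all genes, and 0 were lower, beside 10.2%. With lists of the same length Tfcp2l1 was again higher, beside 3.18%, and 3 were lower, Esrrb, Prdm14 and Fgf4, beside 5.98%. Without scaling 2 were lower, Esrrb and Fgf4, beside 11.7%, and 0 higher, beside 0.832%. Tfcp2l1 was also higher than in TetR, beside 10.1%. Against WT, Esrrb, Tbx3 and Fgf4 were lower, beside 20.0%, and Tfcp2l1, Zfp42 and Dppa3 higher, beside 7.83%. In TetR against WT, Nr0b1, Prdm14 and Fgf4 were lower, beside 11.4%, and Zfp42 and Dppa3 higher, beside 8.57%. Fgf4, Zfp42 and Dppa3 thus differed from WT in the same direction in both construct lines. The share of peaks by chromosome was not compared for the genes of either list, and its part in these counts was not tested. The median difference was -0.120 peaks per 10000 over the 17 and -0.0613 over the 12, beside -0.0392 over all genes. It was negative for 13 and 8 genes, beside 57.2% of all genes. No gene of either list had an adjusted p under 0.05 by the exact permutation test, since none of all genes did. By the same exact permutation test 2 of the 17 and 3 of the 12 had an unadjusted p under 0.05, beside 23.4% of all genes.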

How the data were processed

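The authors made ATAC-seq libraries with Nextera Tn5, per the labels' protocols. Reads were handled with Bowtie2, Picard, HOMER 4.11, deepTools 3.5.5, Trim Galore 0.6.10 and FastQC on mm10, per the submitters' processing notes. The sources used here do not give whether cuts were shifted for Tn5 or blacklisted regions removed. Peaks were called per library without a control, at a false discovery rate of 0.001, 4-fold over the local 10 kb and a threshold of 11 or 12 tags, per the file headers. The score in the deposited lists is 1 in every row and peak width is nearly constant, and each peak was therefore used only as called or not called. Row order, which followed HOMER's peak numbers within each chromosome (lowest rank correlation 0.990), gave each list place in the absence of per-peak tag counts; its sort key is not stated.

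Peaks of different libraries were joined into 1 region where they overlapped by 1 bp or more. Genes, strands and promoter sequences came from RefSeq (GRCm38.p6). Libraries were grouped by title. Peaks within 50 kb per 10000 list peaks were tested between lines by exact permutation over libraries, two-sided, with Benjamini-Hochberg adjustment over all genes, and list places likewise over all regions open in all 9 libraries. All 10 genes are named, with their gene-end regions and the regions whose presence separates lines, while regions separated by list place were named after their values were seen. The genes and the other gene lists were chosen with earlier results of these data known. Alternatives were equal list length, the upper 50% of each list, other windows and joining of peaks up to 200 bp apart. Further ones were presence in at least 2 of 3 libraries, no scaling and scaling per 1000 peaks of the chromosome. A replicate block and leaving out each library were also used. The tests were tried on simulated data. Software was scipy 1.17.1, pandas 2.3.3, numpy 2.4.6 and matplotlib 3.10.9 under Python 3.11.15.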

Additional observations from a re-analysis of the deposited data

How the results depend on the processing

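Peaks were called above a threshold in each library and hold no counts here, so a missing peak may lie just under the threshold, and lists differ in length. The number of genes with fewer peaks in TetR-MYBTA than in both other lines was 1, and it was 0 at equal list length, in the upper 50% of each list and within 10 kb. Leaving out 1 library gave 1 to 2, with 2 without TetR-MYBTA replicate 3, beside 15.8% of genes. Fewer peaks than in TetR were found for 1 gene, beside 17.8%, for 0 at equal list length, beside 12.8%, and for 5 without scaling, beside 25.1%. The upper 50% gave 2 and the 100 kb window gave 2. Leaving out 1 library gave 1 to 5. There were 5 without TetR-MYBTA replicate 3, beside 25.2%, and 2 without TetR replicate 1 or 3, beside 23.1% and 23.0%. More peaks than in TetR were found for 0, and for 0 to 1 when 1 library was left out, with 1 without TetR-MYBTA replicate 2 or TetR replicate 2. Regions missing only in TetR-MYBTA numbered 0, but 1 in the upper 50%, 2 within 100 kb and 3 when a peak in 2 of 3 libraries was enough, and 0 to 1 when 1 library was left out, with 1 without TetR-MYBTA replicate 2 or 3 or WT replicate 2 or 3. Regions in TetR-MYBTA and not in TetR numbered 0, with 1 when 2 of 3 libraries were enough, and 0 to 2 when 1 library was left out, with 2 without TetR-MYBTA replicate 1 and 1 without TetR replicate 1 or 2. Regions in TetR and not in TetR-MYBTA numbered 5, beside 4.43% of all regions, and 2 at equal list length, beside 3.39%. They numbered 3 within 10 kb, 9 within 100 kb and 12 when 2 of 3 libraries were enough. Leaving out 1 library gave 5 to 12 of them, with 10, 8 and 12 without TetR-MYBTA replicates 1, 2 and 3 and 11 without TetR replicate 3. Genes with a gene-end peak in all 9 libraries numbered 4 within 1 kb, beside 44.2% of all genes, and 8 within 2.5 kb. Shares over all genes or regions were not computed for 2.5 kb, the upper 50%, the 10 and 100 kb windows or the rule of 2 of 3 libraries. With 1 library left out they were also not computed for more peaks than in TetR. The same holds there for regions missing only in TetR-MYBTA and for those in TetR-MYBTA and not in TetR. The regions lower by list place numbered 8, beside 8.92% of all such regions, with 8 to 10 when 1 library was left out, beside 10.1 to 13.0%. Of 152 alternative values 118 stayed within 1.5 times the reported count. For a reported 0 this meant that the alternative was also 0. Among the 118 were all those for more peaks in TetR-MYBTA than in both other lines and for regions found only in TetR-MYBTA. Both of these reported counts were 0, beside 4.47% of all genes and 0.587% of all regions, so their staying at 0 says little. The cause of the remaining 34 of the 152 was not tested, apart from windows and rules that admit fewer or more peaks by construction.

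Same-numbered libraries of different lines had correlations of their deviations from the line means from -0.0553 to 0.0942. Differently numbered ones had -0.0931 to 0.0733. With 3 libraries per line these values cannot show whether the replicate numbers mark a pairing. With the replicate number as a block, fewer peaks than in both other lines were found for 1 gene and fewer than in TetR for 2. The share over all genes was not computed for these. Lower list places were then found for 9 regions, 25.7%, beside 14.5% of all such regions.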
